A study of Mus musculus with 58 samples.

Results

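The circadian clock genes examined here were Arntl, Dbp, Tef, Hlf, Nr1d1, Nr1d2, Per1, Per2, Per3 and Ciart, 10 genes found by symbol among the 24940 genes listed for the age series. The 2 tables from animals injected with antisense oligonucleotides (ASOs) listed 9 of them, among 10277 and 10589 genes, without Ciart. The genes were chosen by values measured in these same libraries: in an earlier analysis the SgshKO against WT differences of Hlf, Dbp and Nr1d1 were not the same at 8 and at 4 months. The 4-month and 8-month values and the age differences are therefore given as a description, with no test. Tests were kept for 3 weeks, for the ASO comparisons and for the replicate sets of the ASO experiments. The 3-week tests were not fully separate, since their spread was estimated over the whole age series, the 4-month and 8-month libraries included. All 10 genes passed the filter on low counts in the age series. In the ASO tables the filter removed no gene, so the 9 members there passed with all others.

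The libraries were polyA RNA of microglia, the resident macrophages of the brain, sorted from forebrains of C57BL/6 mice as CD11b+, CD45 low and CX3CR1+ cells. WT mice were compared with SgshKO mice, which lack Sgsh, the gene of a lysosomal sulfatase that helps to break down heparan sulfate. The age series held 3 WT and 4 SgshKO libraries at 3 weeks, 2 and 2 at 4 months, and 4 and 7 at 8 months, with no injection. In a second experiment WT mice received 1 intracerebroventricular injection of PBS, of a control ASO labelled ntc, or of an ASO named for Mitf, Tfeb or Tfe3, in 4 libraries each. These libraries carry a label grp from 1 to 4, with 1 library of each treatment in each grp. SgshKO mice received ntc or a combination of the Mitf and Tfe3 ASOs, in 8 libraries each, 4 in grp 1 and 4 in grp 2. Injected animals were taken 14 days later; their age, the sex of any animal and the hour of collection are not given in the sources used here, and neither is whether a library is 1 animal. The hour of collection therefore cannot be told apart from genotype, age, treatment or grp, and p-values measure the spread between these libraries.

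The mammalian clock is a feedback loop of transcription factors that runs in most cells of the body and is set by the time of day. Arntl encodes BMAL1, which pairs with CLOCK and switches on genes that carry E-boxes. The PER proteins, with the CRY proteins, and CIART repress BMAL1 and CLOCK. The nuclear receptors REV-ERB alpha and beta, encoded by Nr1d1 and Nr1d2, repress Arntl through RORE sites, and Dbp, Tef and Hlf encode the PAR bZIP factors, output regulators that bind D-boxes. Arntl mRNA therefore peaks at nearly the opposite hour of the day from Dbp, Nr1d1 and the Per genes, so that an animal taken at another hour is placed differently on both sides. Per1 is in addition an early response gene of several stimuli, glucocorticoids among them. MITF, TFEB and TFE3 are bHLH factors that also recognise E-box cores.

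Promoter sequences of the members that hold such elements are shown, with that of Hlf, the member with the largest genotype difference, for comparison. Each window ran from 250 bases before to 50 bases after an annotated RefSeq start (GRCm38.p6, the build of the deposited mm10 positions), and 9 of the 10 genes had at least 1 window, 12 windows in all. The E-box was searched as CACGTG, the D-box as TTATGTAA or TTACGTAA and the RORE as TAGGTCA, on both strands. Only the bases before the start are printed, 5' to 3', with matches in capitals.
Ciart, chr3:95882229-95882478, minus strand: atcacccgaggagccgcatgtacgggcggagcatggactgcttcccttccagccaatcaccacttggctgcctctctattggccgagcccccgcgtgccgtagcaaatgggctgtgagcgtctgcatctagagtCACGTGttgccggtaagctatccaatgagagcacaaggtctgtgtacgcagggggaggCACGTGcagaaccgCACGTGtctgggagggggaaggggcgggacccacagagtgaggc
Tef, chr15:81811164-81811413, plus strand: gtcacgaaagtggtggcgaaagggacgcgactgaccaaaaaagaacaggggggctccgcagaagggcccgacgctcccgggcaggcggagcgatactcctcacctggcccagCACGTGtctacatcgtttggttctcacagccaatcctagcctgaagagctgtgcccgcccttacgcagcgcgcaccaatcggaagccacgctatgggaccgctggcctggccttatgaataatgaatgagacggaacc
Per1, chr11:69098699-69098948, plus strand: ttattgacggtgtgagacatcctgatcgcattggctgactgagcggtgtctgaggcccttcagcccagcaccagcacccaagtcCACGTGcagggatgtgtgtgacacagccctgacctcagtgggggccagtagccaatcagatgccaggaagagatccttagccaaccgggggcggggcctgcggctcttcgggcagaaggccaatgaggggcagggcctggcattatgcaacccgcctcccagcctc
Per3, chr4:151044666-151044915, minus strand: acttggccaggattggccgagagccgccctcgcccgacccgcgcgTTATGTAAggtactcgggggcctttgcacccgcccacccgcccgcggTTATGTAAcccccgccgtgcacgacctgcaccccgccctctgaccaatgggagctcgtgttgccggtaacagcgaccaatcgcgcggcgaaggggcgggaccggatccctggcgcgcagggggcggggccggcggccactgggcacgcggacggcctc
Hlf, chr11:90390918-90391167, minus strand: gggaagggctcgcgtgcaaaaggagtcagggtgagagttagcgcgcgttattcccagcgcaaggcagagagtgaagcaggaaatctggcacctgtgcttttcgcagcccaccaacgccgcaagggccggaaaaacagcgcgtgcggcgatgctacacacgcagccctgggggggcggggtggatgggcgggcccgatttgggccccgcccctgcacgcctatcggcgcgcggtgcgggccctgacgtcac
The E-box was found in the windows of 3 of the 9 genes, in 4 of the 12 windows. Ciart held 3 copies, whose first bases lay at -116, -58 and -44 from the start, Per1 held 1 at -166, and Tef held 1 in each of its windows, at -138 in the window shown. Of all 32851 mouse windows, 7.15% held it. Per3 held the D-box at -205 and at -158, an element present in 1.06% of windows. Arntl held a RORE whose first base was base 31 of the transcript from its second annotated start, inside chr7:113207531-113207555 on the plus strand, aggcagaaagTAGGTCAgggacgga, an element of 2.61% of windows. The windows of Dbp, Hlf, Nr1d1 and Nr1d2 held none of these letters, which says nothing of elements elsewhere in the genes.

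The age libraries were sequenced to between 8191508 and 27106580 counts, the WT ASO libraries to between 14372020 and 30378870 and the SgshKO ASO libraries to between 12517840 and 30431440. Levels are given as CPM, a gene's counts scaled to a fixed library total, after TMM scaling within each of the 3 tables. The summed CPM of 6 microglia markers at 8 months was 26615 to 29715 in SgshKO libraries against 35556 to 42948 in WT, the sum of 5 neuron markers was at most 6.48 in the age series, and Sgsh reads were still counted in SgshKO (20.1 to 34.7 CPM against 31.9 to 59.2 at 8 months). Transcripts of 5 neutrophil granule genes reached 2778 to 13758 in the 2 SgshKO libraries of 4 months and 399 to 5341 in the 7 of 8 months, against at most 7.33 in WT at those ages. Each ASO lowered its target. On the log2 scale Mitf fell by 4.81, Tfeb fell by 3.24 and Tfe3 fell by 2.38 in WT, and with the combination in SgshKO Mitf fell by 2.26 and Tfe3 fell by 1.08 (edgeR quasi-likelihood test, highest adjusted p = 2.19e-09).

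The oldest animals showed the widest differences among the clock genes. At 8 months the output genes Dbp, Tef and Hlf, the repressors Nr1d1 and Nr1d2 and the Per genes had lower values in SgshKO than in WT, while Arntl and Ciart were not separated between the genotypes. Hlf stood furthest apart. Of the 10 genes, 7 had groups that did not overlap, against 25.2% of all 14309 genes tested; the 8-month libraries were among those that chose the genes, so the count is a description. The plot of CPM by age and genotype gives every library.

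**Figure D1:**
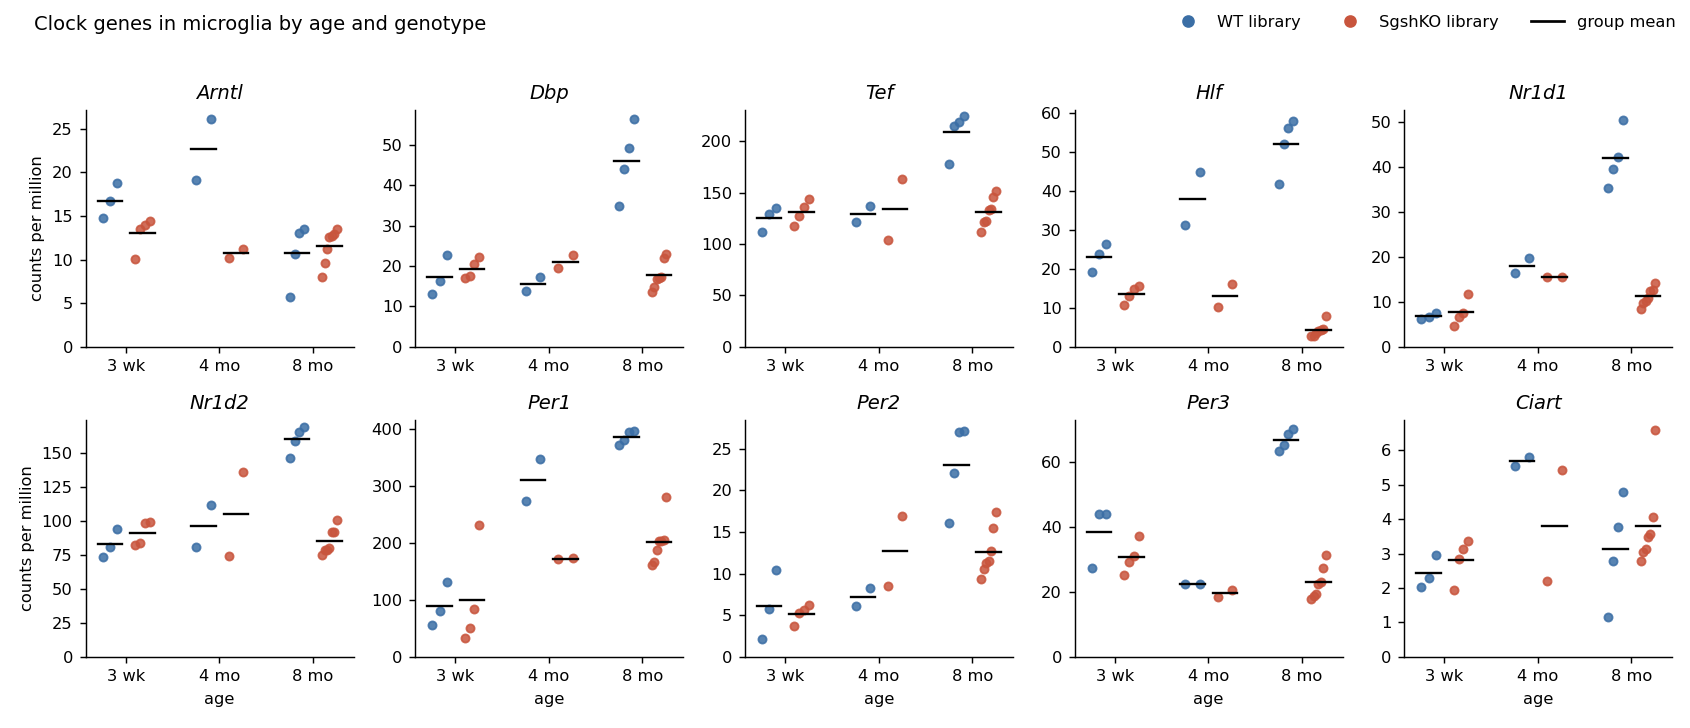
CPM values of the 10 clock genes (y axis, linear, each panel on its own scale) by age (x axis) in 13 SgshKO and 9 WT libraries; each point is 1 library and each bar a group mean. At 8 months the WT libraries of Dbp, Tef, Hlf, Nr1d1, Nr1d2, Per1 and Per3 lie above all SgshKO libraries, and those of Arntl lie among them.

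The PAR bZIP genes were the first group. Hlf (chr11:90336535-90390917) had 56.05, 51.9, 57.9 and 41.7 CPM in the 4 WT libraries of 8 months, and in the 7 SgshKO libraries it ran from 2.84 through a median of 3.96 to 7.85. The lowest WT library was thus over 5 times the highest SgshKO library, and the fitted log2 difference was -3.62 ± 0.20 (SE). Dbp (chr7:45705247-45710203), whose protein drives D-box genes, had 43.98, 56.4, 49.3 and 34.8 CPM in WT and ran from 13.6 through a median of 17.1 to 23.1 in SgshKO, a difference of -1.37 ± 0.15. Tef (chr15:81811414-81826863), the third of these paralogs, had 224, 219, 215 and 178 in WT and ran from 111 through a median of 133 to 152 in SgshKO (-0.67 ± 0.10). All 3 paralogs were lower without overlap, Hlf by the most and Tef by the least.

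Among the REV-ERB genes Nr1d1 (chr11:98767932-98775377) had 39.5, 42.2, 50.3 and 35.4 CPM in WT and ran from 8.46 through a median of 10.8 to 14.1 in SgshKO, a difference of -1.91 ± 0.17. Nr1d2 (chr14:18204056-18239106) had 166, 159, 169 and 146 in WT and ran from 75.1 through a median of 79.9 to 101 in SgshKO (-0.91 ± 0.12). Neither gene's groups overlapped. In the GENCODE annotation 263 exon bases of Nr1d1 are shared with Thra on the opposite strand and 539 of Dbp with Sphk2; whether the counting used the strand is not given in the sources used here.

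The Per genes, the negative arm of the loop, differed less evenly. Per3 (chr4:151003655-151044665) had 65.2, 63.3, 70.3 and 68.7 CPM in WT and ran from 17.7 through a median of 22.6 to 31.4 in SgshKO (-1.55 ± 0.14). Per1 (chr11:69098949-69109957) had 398, 372, 382 and 396 in WT and ran from 161 through a median of 204 to 281 in SgshKO (-0.94 ± 0.30). Per2 (chr1:91415982-91459328) had 16.02, 22.1, 27.2 and 26.97 in WT and ran from 9.29 through a median of 11.6 to 17.5 in SgshKO (-0.87 ± 0.26). The highest SgshKO library of Per2 exceeded the lowest WT library, so the groups of Per2 overlapped, unlike those of Per1 and Per3. Ciart (chr3:95878505-95882228), the repressor with 3 E-boxes in its window, had 2.77, 1.16, 3.78 and 4.78 in WT and ran from 2.77 through a median of 3.49 to 6.60 in SgshKO (0.30 ± 0.33); its counts in the age series were 18 to 140 per library, and its groups overlapped.

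The activator Arntl did not stand on the opposite side at this age. Arntl (chr7:113207465-113314126) had 13.04, 13.5, 10.7 and 5.66 CPM in WT and ran from 7.94 through a median of 12.6 to 13.5 in SgshKO, with overlapping groups and a fitted difference of 0.09 ± 0.19. Leaving out 1 library moved that difference between -0.14 and 0.22, while the 8 lower genes stayed lower whichever library was left out. In log2(Arntl/Dbp), a ratio that does not depend on the scaling of a library, SgshKO libraries lay from -1.54 to -0.02 and WT libraries from -2.62 to -1.75. The ratio was higher in SgshKO by 1.53; the Dbp values behind it did not overlap between the genotypes, and the Arntl values did.

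Other genes moved with the 8-month groups. The summed CPM of 13 glucocorticoid-responsive genes was 3509 to 4679 in WT and 1837 to 2982 in SgshKO, with no overlap. The sum of 18 immediate early and dissociation genes was 9784 to 12129 and 5937 to 9733, again with no overlap. Single genes did not all follow these 2 sums. Of the 13 glucocorticoid-responsive genes 5 were higher in SgshKO and 8 lower. Of the 18 immediate early genes 5 were higher and 13 lower, with a median log2 difference of -0.09 against 0.02 over all genes tested. The endothelial marker sum was 61.05 to 68.98 in WT and 35.3 to 54.3 in SgshKO, and that of border macrophage markers 14.9 to 31.8 and 47.7 to 101. Of 3 endothelial markers tested, however, 2 had higher values in SgshKO and 1 a lower value, with a median log2 difference of 0.78. The neutrophil sums are given above. The part of these in the clock gene differences was not tested. Of 5 astrocyte markers Slc1a3 was 282 to 398 CPM in WT and 164 to 279.8 in SgshKO, while Gfap, Aqp4, Gja1 and Aldoc were at most 1.80 in any WT library and at most 5.16 in any SgshKO library. In bulk libraries fewer cells of a type and less RNA per cell cannot be told apart.

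Beyond the 10 genes, 22 of a list of 24 other clock genes (the partners of BMAL1, the CRY and ROR genes, the DEC repressors, the kinases and ubiquitin ligases of the loop and some outputs) were measured in the age series. At 8 months 12 of 22 measured genes were higher and 10 lower in SgshKO, with a median log2 difference of 0.17 against 0.02 over all genes tested. Bhlhe40, which encodes the E-box repressor DEC1, had the widest difference of these genes and the members (6.22): 0.139 to 0.531 CPM in WT and 16.8 to 35.4 in SgshKO. Its paralog Bhlhe41 (0.44), Rora (0.77), which encodes an activator at RORE sites, and Nampt (0.74), an E-box target that makes an NAD precursor, were higher. Usp2, a clock output, was lower (-0.85), and Clock, Cry1 and Cry2 differed by -0.26, 0.03 and -0.35. Wee1 (1.92), a clock output, and Timeless (1.61), both of which act in the cell cycle, were higher, as was Fbxl21 (1.44), the gene of an F-box protein that binds the CRY proteins. These 11 genes were named after their values were seen.

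At 4 months the pattern was another one. Arntl was lower in SgshKO, Dbp and Per2 were higher, and Hlf and Per1 were lower. Arntl had 19.1 and 26.1 CPM in the 2 WT libraries and 10.1 and 11.3 in the 2 SgshKO libraries (-1.08 ± 0.31). Dbp had 17.4 and 13.8 in WT and 19.4 and 22.6 in SgshKO (0.44 ± 0.27). Arntl and Dbp thus stood on opposite sides, and log2(Arntl/Dbp) was 0.14 and 0.92 in WT and -0.94 and -1.01 in SgshKO, lower in SgshKO by 1.50 where it was higher by 1.53 at 8 months.

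Other members did not follow that order at 4 months. Hlf had 44.8 and 31.1 CPM in WT and 10.1 and 15.99 in SgshKO (-1.52 ± 0.33). Per1 had 273 and 347 in WT and 173 and 172 in SgshKO (-0.85 ± 0.50), and Per2 had 8.27 and 6.10 in WT against 8.56 and 16.9 in SgshKO (0.85 ± 0.46). Nr1d1, Nr1d2, Per3 and Tef differed by -0.21 to 0.12, and Ciart by -0.56 ± 0.53. Groups did not overlap in 8 of the 10 genes, but with 2 libraries against 2 that holds for 58.1% of all genes tested. Leaving out 1 library changed the sign of the difference for Nr1d2 and Tef. Of the other clock genes 13 of 22 measured genes were higher and 9 lower, and Bhlhe40 was 3.16 to 3.90 CPM in WT and 29.5 to 37.5 in SgshKO. Beside these values, the immediate early sum was 22058 to 28926 in WT and 16645 to 19038 in SgshKO, the highest of the ages in WT, and the glucocorticoid sum was 4278 to 4609 and 2737 to 3171. The microglia marker sum was 38842 to 42936 in WT and 25029 to 28271 in SgshKO, that of border macrophages 8.87 to 9.25 and 64.1 to 117, and that of endothelial cells 53.9 to 69.4 and 33.6 to 37.7. Astrocyte, oligodendrocyte, monocyte and neuron sums did not overlap either (WT lower in the last 3), nor did the neutrophil sums given above. Single genes did not all follow their sums. Of 3 endothelial markers tested 2 were higher in SgshKO and 1 lower, and of 5 astrocyte markers 4 were higher and 1 lower. Of 4 oligodendrocyte markers 2 were higher and 2 lower, and of 13 glucocorticoid-responsive genes 7 were higher and 6 lower. Of 18 immediate early genes 5 were higher and 13 lower. The part of these sums and genes was not tested.

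**Figure D2:**
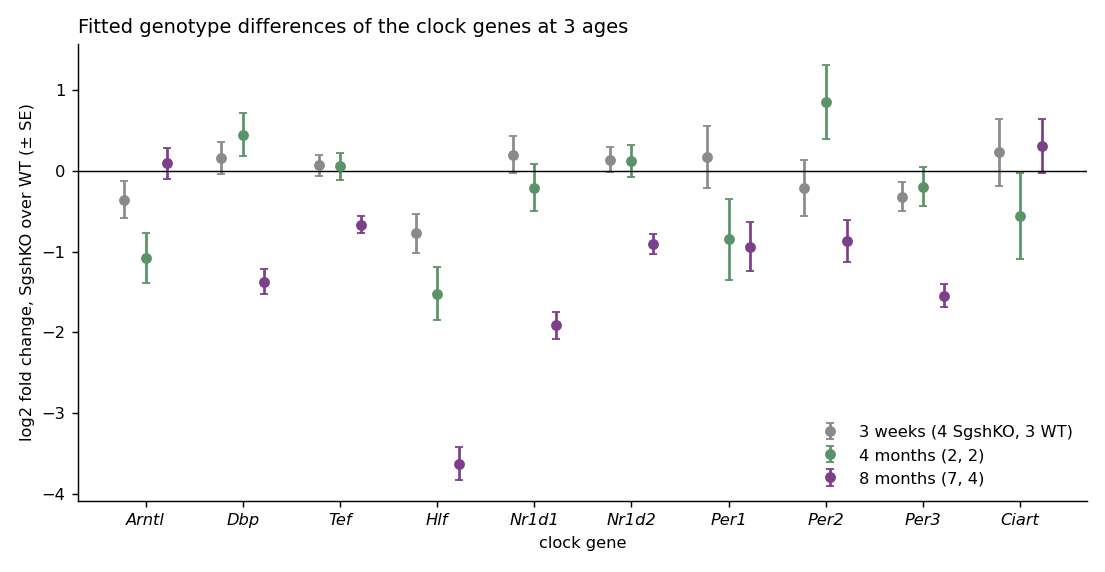
Fitted log2 fold change of SgshKO over WT (y axis, with its standard error) for each clock gene (x axis) at 3 weeks, 4 months and 8 months; 0 is no difference. Hlf is below 0 at all 3 ages, with -0.78, -1.52 and -3.62, while Arntl is lowest at 4 months (-1.08) and near 0 at 8 months (0.09).

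At 3 weeks, where the difference could be tested, Hlf was the 1 member of 10 that was called, and 9.03% of all 14309 genes tested were called. Hlf had 23.9, 26.3 and 19.1 CPM in the 3 WT libraries and 15.6, 10.6, 14.8 and 13.01 in the 4 SgshKO libraries, with no overlap. It was lower in SgshKO by a log2 fold change of -0.78 ± 0.24 (adjusted p = 0.0419, edgeR quasi-likelihood test). This call did not hold when WT replicate 1 (adjusted p = 0.131) or 2 (0.194), or SgshKO replicate 2 (0.129), 3 (0.0636) or 4 (0.0937), was left out. With limma on log2(TPM + 0.1) the adjusted p was 0.0521, and with a replicate block in edgeR it was 0.0588. The edgeR fit held the whole age series, so the spread behind the call came partly from older libraries, whose values helped to choose Hlf. No fit of the 3-week libraries alone is given, so how far the call rests on that shared spread is not known. The endothelial marker sum at this age was 58.2 to 73.3 in WT and 46.4 to 53.4 in SgshKO, with Pecam1 called lower and Kdr higher, and the border macrophage sum 54.2 to 75.2 and 80.5 to 106. The astrocyte sum was 143 to 160.3 and 187 to 248, with Slc1a3 called higher, and the microglia sum 46489.9 to 47719.8 and 40793 to 43522, with Cx3cr1 and Tmem119 called lower. Of the immediate early genes, 18 of 18 had higher fitted values in SgshKO, 4 of them called, and Dusp1 and Mt1 of the glucocorticoid-responsive genes were called higher. The immediate early sum was 5992 to 9315 in WT and 5788 to 26806 in SgshKO, so the groups overlapped. The part of these in the Hlf difference was not tested.

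The other 9 genes did not pass at 3 weeks. Arntl had 14.7, 18.8 and 16.7 CPM in WT and 14.4, 13.98, 10.1 and 13.5 in SgshKO; the groups did not overlap, and the log2 fold change was -0.36 ± 0.23 (adjusted p = 0.436). Dbp had 16.3, 22.7 and 12.96 in WT and 17, 20.4, 22.2 and 17.6 in SgshKO (0.15 ± 0.20, adjusted p = 0.777). Arntl and Hlf were the 2 members without overlap, where 22.5% of all genes tested had none. The median log2 fold change of the members was 0.10 against -0.02 over all genes. Of 22 other clock genes Nampt rose (0.54 ± 0.13, adjusted p = 0.00535, edgeR) and no other was called, with a median of -0.04 against -0.02 over all genes. Per1 in the 4 SgshKO libraries was 232, 50.4, 33.3 and 83.6 CPM against 56.7, 131 and 80.5 in WT. The high library, replicate 1, also had the highest immediate early sum of its group, 26806 against at most 12261 in the other 3, and the highest glucocorticoid sum, 4830 against at most 2758; their part in its Per1 value was not tested.

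Between ages, most members differed more in WT than in SgshKO. From 4 to 8 months in WT, Arntl was lower by a log2 difference of -1.07 ± 0.25 while Dbp (1.57 ± 0.24), Per2 (1.69 ± 0.41), Per3 (1.57 ± 0.22), Nr1d1 (1.22 ± 0.25), Nr1d2 (0.74 ± 0.18) and Tef (0.70 ± 0.15) were higher. Hlf (0.46 ± 0.27) and Per1 (0.32 ± 0.43) were higher by less, and Ciart was lower (-0.88 ± 0.45). Between these WT groups Arntl and Ciart thus stood on one side and the other 8 genes on the opposite one. In SgshKO the same step was small for most genes: Arntl 0.10 ± 0.25, Dbp -0.24 ± 0.21, Per3 0.23 ± 0.20 and Nr1d1 -0.48 ± 0.23. Hlf was the exception, lower at 8 than at 4 months with a difference of -1.64 ± 0.26, where it was not lower in WT. The genotype difference thus moved from 4 to 8 months by -1.81 ± 0.31 for Dbp, -2.10 ± 0.39 for Hlf, -1.70 ± 0.34 for Nr1d1 and 1.17 ± 0.36 for Arntl.

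From 3 weeks to 4 months WT and SgshKO shared some steps. Nr1d1 was higher by 1.41 ± 0.26 in WT and 1.01 ± 0.25 in SgshKO, and Per3 was lower by a log2 difference of -0.77 ± 0.22 and -0.65 ± 0.21. Per1 was higher by 1.79 ± 0.45 in WT, with the immediate early sum at 5992 to 9315 at 3 weeks and 22058 to 28926 at 4 months. In SgshKO Per1 was higher by 0.78 ± 0.42, with overlapping groups. Per2 differed more in SgshKO (1.31 ± 0.38, no overlap) than in WT (0.24 ± 0.42, overlapping groups). Hlf was 0.71 ± 0.28 in WT and -0.03 ± 0.29 in SgshKO. The mean WT level of Hlf was thus higher at each later age, although the WT libraries of 4 and 8 months overlapped. The SgshKO level of Hlf was about the same at 3 weeks and 4 months and lowest at 8 months.

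On the deposited TPM scale, which corrects for transcript length and library size, Tef and Per1 were the most abundant members and Per2 and Ciart among the least. In WT at 8 months Per1 stood at 130.5 ± 5.51 TPM (SD, n = 4), followed by Tef at 78.6 ± 6.67, Nr1d2 at 54.1 ± 2.94 and Dbp at 43.1 ± 7.997. Nr1d1 (23.8 ± 3.45), Per3 (17.5 ± 1.05) and Hlf (14.3 ± 1.86) came next, then Per2 (6.22 ± 1.47), Arntl (5.88 ± 2.11) and Ciart (3.54 ± 1.79). Of neighbours in this order, the libraries of Nr1d2 and Dbp, of Per2 and Arntl, and of Arntl and Ciart overlapped, and those of the others did not. In SgshKO at 8 months the first 4 were the same genes in the same order, from Per1 at 61.4 ± 11.99 (SD, n = 7) to Dbp at 15.1 ± 3.03, and Hlf was last at 1.06 ± 0.421, where it was the seventh in WT.

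Within 1 group, Arntl and Dbp can be compared with no difference of genotype, age or ASO. In the 7 SgshKO libraries of 8 months Arntl was 12.7, 12.9, 11.2, 9.64, 7.94, 12.6 and 13.5 CPM and Dbp was 16.9, 14.8, 17.3, 22.03, 23.1, 17.1 and 13.6, in the same library order. The library with the most Dbp had the least Arntl, and the order was reversed without a tie over all 7. On log2 CPM, r was -0.929 and rho was -1, given as a description because 8-month values of Dbp helped to choose the genes. Over the 5 libraries left without replicates 4 and 5, the 2 farthest from the median of Dbp, r was -0.725 and rho was -1. The REV-ERB genes differed from each other here: the highest Nr1d2 value, 101 CPM, was in replicate 5, which had the most Dbp, and the highest Nr1d1 value, 14.1 CPM, was in replicate 7, which had the least. The 4 WT libraries of 8 months did not show the reversed order. Replicate 4 had the least Arntl (5.66 CPM) and the least Dbp (34.8), and replicate 2 the most of both (13.5 and 56.4).

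In the SgshKO ASO groups, which did not choose the genes, the relation could be tested and did not pass. In the 8 ntc libraries Arntl against Dbp gave r = 0.623 (exact permutation p = 0.0991, adjusted p = 0.149 over 3 groups) and rho = 0.548 (exact permutation p = 0.171). In the 8 combination libraries it gave r = -0.533 (exact permutation p = 0.175, adjusted p = 0.175) and rho = -0.405 (exact permutation p = 0.327). The adjustment over 3 groups included SgshKO at 8 months, whose p is not printed. Neither ASO group had an unadjusted p under 0.05. Centred within grp, r was 0.377 in ntc (exact permutation p = 0.333) and -0.280 in the combination (exact permutation p = 0.486). The sign of r was not the same in the 3 groups, and a difference between their correlations was not tested.

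**Figure D3:**
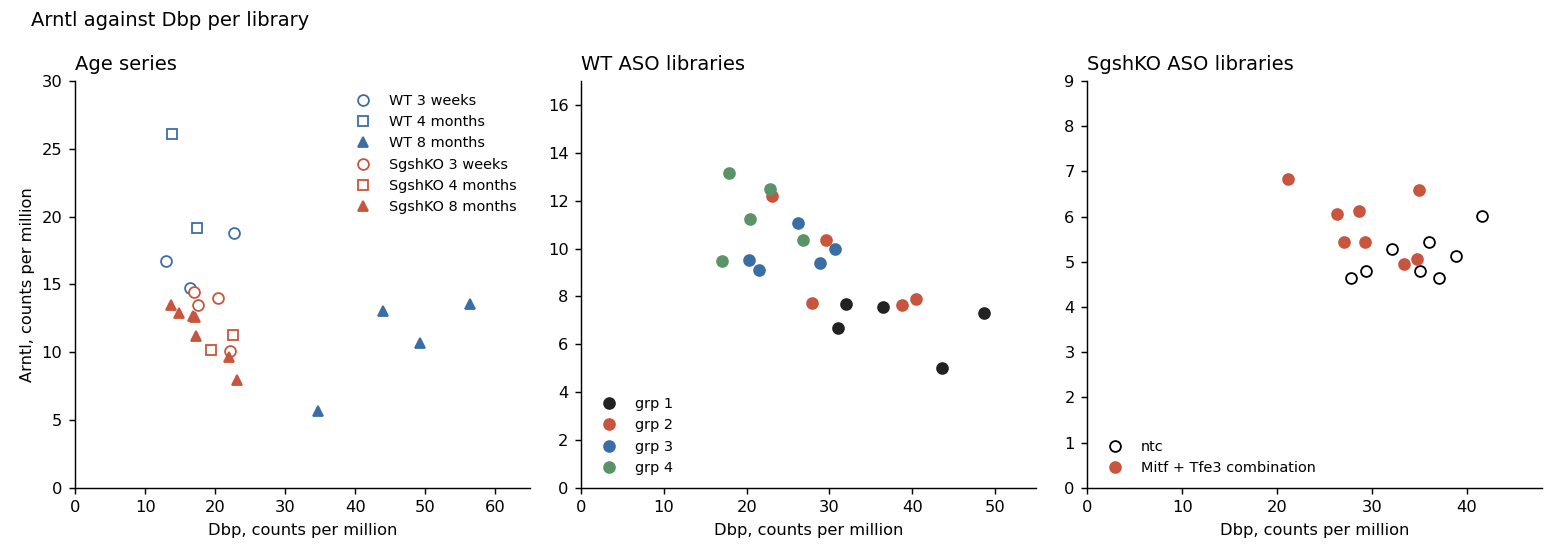
Arntl (y axis) against Dbp (x axis), both in CPM on linear axes, with 1 point per library in the 3 series. In the age series the 7 SgshKO libraries of 8 months run from 13.5 CPM of Arntl at 13.6 of Dbp to 7.94 at 23.1; in the WT ASO series the 5 libraries of grp 1 lie at the lower right, and the SgshKO ASO libraries run from 21.2 to 41.6 CPM of Dbp.

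In the WT ASO experiment more members were called over the grp label than in any comparison of treatments. Arntl was lowest in grp 1 in 5 of 5 treatments, and Per2 and Per3 were highest there in 5 of 5 and Dbp in 4 of 5. Arntl in the 5 libraries of grp 1 was between 5.0 and 7.66 CPM and in those of grp 4 between 9.49 and 13.1. Dbp was between 31.0 and 48.7 in grp 1 and between 16.96 and 26.8 in grp 4. Neither gene's values overlapped between grp 1 and grp 4. Of the 9 members, 6 were called over the 3 grp coefficients (Arntl, Dbp, Tef, Hlf, Per2 and Per3), where 51.7% of all 10277 genes were called, so that a call over grp was common among all genes.

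Among the 6 called members, 4 stood opposite to Arntl over grp, and Hlf stood with it. Against grp 1, Arntl in grp 2, 3 and 4 was higher by 0.41, 0.52 and 0.73 (adjusted p = 0.000785, edgeR quasi-likelihood F test). Dbp differed by -0.25, -0.59 and -0.86 (adjusted p = 0.000855), Per2 by -0.83, -1.26 and -1.37 (adjusted p = 0.000146) and Per3 by -0.41, -0.77 and -0.77 (adjusted p = 8.83e-05). Arntl rose where Dbp, Per2 and Per3 fell. Tef differed by -0.05, -0.09 and -0.21 (adjusted p = 0.0249), a call lost without PBS, Mitf or Tfeb replicate 4 (highest adjusted p = 0.0794). Hlf, the paralog of Dbp, went the other way, with 0.24, 0.67 and 0.56 (adjusted p = 0.00256).

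Nr1d1 (-0.16, 0.32 and 0.03, adjusted p = 0.0509), Nr1d2 (-0.16, -0.13 and -0.30, 0.0873) and Per1 (-0.10, 0.41 and -0.01, 0.544) did not pass with edgeR. DESeq2 called Nr1d1 and Nr1d2 as well, 8 members in all, where it called 5590 of all 10277 genes. Beside these values, the immediate early sum was highest in grp 1 in 5 of 5 treatments (1238 to 1757 against at most 1347 elsewhere). The sum of Pecam1 and Kdr, the 2 endothelial markers listed in this table, was lowest there in 5 of 5 (51.5 to 61.1), and that of 3 oligodendrocyte markers highest there in 5 of 5 (86.7 to 92.9 against at most 81.4). The glucocorticoid sum was highest in grp 3 in 4 of 5 (1029 to 1431 over the 5). Slc1a3, the 1 astrocyte marker listed, was highest in grp 3 in 5 of 5 (299 to 382 against at most 272 elsewhere) and was called over grp, as were 5 of 6 microglia markers. Their part was not tested, and whether grp stands for a day, a litter or a run is not given. In the list of other clock genes 10 of 17 measured were called over grp, Clock, Cry1 and Nfil3 among them. With edgeR 51.7% of all genes were called over grp, so a call was common for genes of any list.

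**Figure D4:**
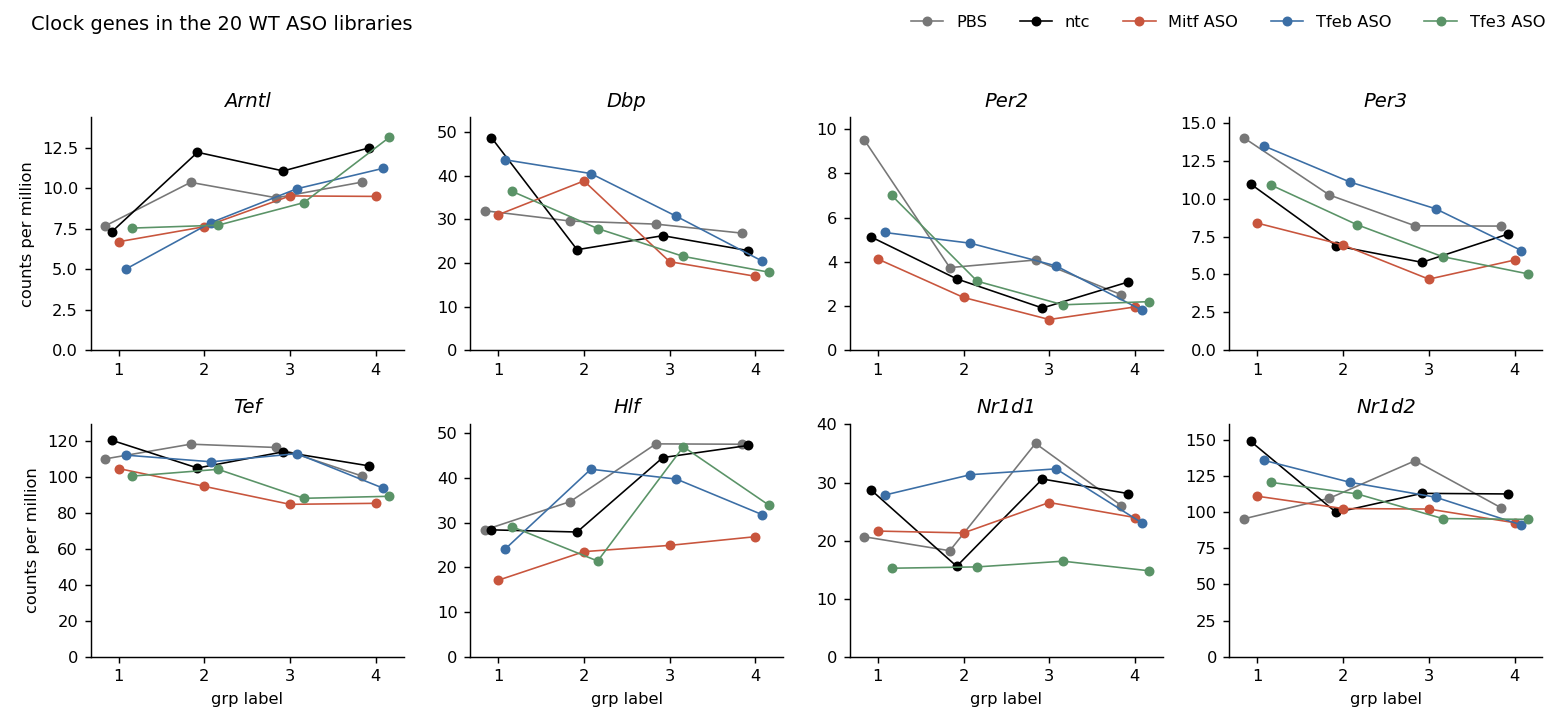
CPM values (y axis, linear, each panel on its own scale) of 8 clock genes in the 20 WT ASO libraries by grp label (x axis); each point is 1 library and lines join the libraries of 1 treatment. Arntl is lowest and Per2 and Per3 are highest at grp 1 in all 5 treatments, and Hlf is higher at grp 4 than at grp 1 in all 5.

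With grp in the model, the Mitf ASO lowered 2 of the 9 clock genes against ntc, Tef and Hlf, where 11% of all genes were called. Tef was 120.3, 104.9, 113.9 and 106.1 CPM in ntc, grp 1 to 4 in order, and 104.6, 94.7, 84.7 and 85.3 in Mitf ASO libraries. It was lower in each grp, the groups did not overlap, and the log2 fold change was -0.27 ± 0.06 (adjusted p = 0.00881, edgeR). Hlf was 28.4, 27.9, 44.6 and 47.3 in ntc and 17.1, 23.5, 24.9 and 26.9 with the Mitf ASO, again with no overlap (-0.67 ± 0.16, adjusted p = 0.0111). Hlf was lower within every grp as well, and its call was lost without Mitf replicate 3 (0.0534) or ntc replicate 4 (0.0564).

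The other 7 members had negative differences with the Mitf ASO too, none of them called, from -0.13 for Nr1d1 to -0.50 for Per2. Arntl was 7.31, 12.2, 11.1 and 12.5 CPM in ntc and 6.70, 7.62, 9.52 and 9.49 with the Mitf ASO (-0.36 ± 0.13, adjusted p = 0.0988). Dbp was 48.7, 23.04, 26.2 and 22.8 and 31.04, 38.8, 20.3 and 16.96 (-0.17 ± 0.17, adjusted p = 0.571). Arntl and Dbp thus differed in the same direction, not in opposite ones, with a member median of -0.28 against -0.01 over all genes. Of 17 other clock genes Bhlhe41 (0.23 ± 0.06, adjusted p = 0.0253) and Nampt (0.21 ± 0.06, adjusted p = 0.0266) rose and none fell (edgeR). Beside these calls, 6 of 6 microglia markers had lower values with the Mitf ASO, Cx3cr1, Tmem119 and Sall1 of them called, and their sum was 52596 to 54383 against 56065 to 59706 in ntc. Mobp of the oligodendrocyte markers and the glucocorticoid-responsive Mt1 were called higher, and of 17 immediate early genes 1 was called higher and 2 lower. The part of these was not tested. Without the grp term neither Tef (adjusted p = 0.126) nor Hlf (0.191) was called. In the deposited batch-corrected table limma gave Tef no call (adjusted p = 0.9999), where its Mitf replicate 4 is listed at 2755 and the other 3 Mitf ASO libraries at 1740.4 to 1922, although replicate 4 had 85.3 CPM in the counts, among the lower values of the 4.

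The Tfe3 ASO lowered Nr1d1, 1 of the 9 members, where 2.16% of all genes were called. Nr1d1 was 15.3, 15.5, 16.5 and 14.8 CPM in the 4 Tfe3 ASO libraries, the narrowest spread of any treatment, and 28.7, 15.6, 30.6 and 28.1 in ntc. The ntc library of grp 2 lay among the Tfe3 values and the other 3 well above them (-0.71 ± 0.16, adjusted p = 0.0262, edgeR). The call was kept in 2 of 8 fits that left out 1 library, those without replicate 2 of either group, and had an adjusted p of up to 0.125 in the other 6. Without the grp term it was lost as well (adjusted p = 0.219). Tef, with 100.4, 104.2, 88.1 and 89.2 CPM, had no overlap with ntc, with a log2 fold change of -0.22 ± 0.06 (adjusted p = 0.0723, edgeR), and passed with DESeq2.

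No other member was called, and Arntl (-0.20 ± 0.13) and Dbp (-0.22 ± 0.17) had negative values as well, with adjusted p = 0.485 and 0.559 (edgeR). Rora, whose product competes with REV-ERB at RORE sites, fell as well (-0.57 ± 0.12, adjusted p = 0.0179, edgeR), the 1 call among 17 other clock genes. Cx3cr1 of the microglia markers and 2 of 17 immediate early genes were called lower in the same comparison, and their part was not tested. The 4 WT comparisons share the ntc libraries, so their values are given side by side and not compared.

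None of the 9 members was called with the Tfeb ASO (edgeR, where 0.778% of all genes were called), with 2 at an unadjusted p under 0.05 and none called by DESeq2. Those 2 were Arntl, 5.0, 7.88, 9.96 and 11.2 CPM (-0.37 ± 0.14, adjusted p = 0.228), and Per3, 13.5, 11.1, 9.33 and 6.58 CPM against 10.96, 6.89, 5.80 and 7.65 in ntc (0.35 ± 0.13, adjusted p = 0.235). Dbp differed by 0.16 ± 0.17. The control ASO against PBS called 0 members and 0% of all genes with edgeR; DESeq2 called none of the members either. Per3 was the 1 member at an unadjusted p under 0.05, with 14.01, 10.2, 8.20 and 8.19 CPM in PBS and a log2 fold change of -0.36 ± 0.13 (adjusted p = 1, edgeR). Per3 in ntc was lower than in PBS in each grp, and higher with the Tfeb ASO than with ntc in 3 of 4.

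**Figure D5:**
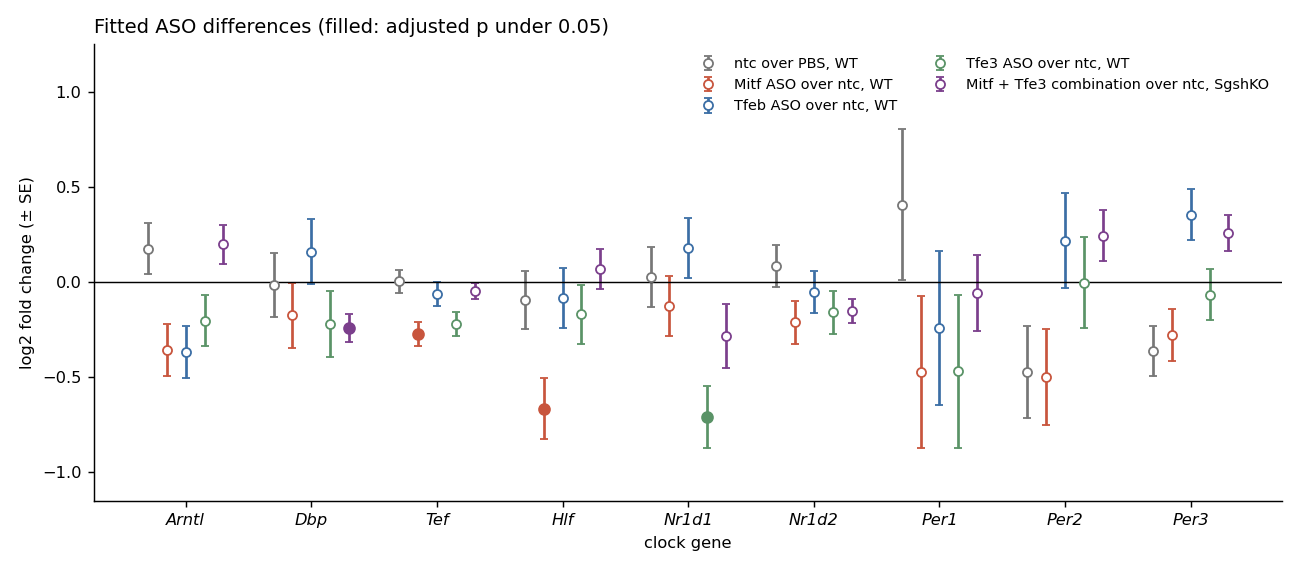
Fitted log2 fold changes (y axis, with standard errors) of the 9 clock genes (x axis) in the 5 ASO comparisons, each with grp in the model; filled points have an adjusted p under 0.05. The filled points are Tef and Hlf with the Mitf ASO, Nr1d1 with the Tfe3 ASO and Dbp with the SgshKO combination, and all are below 0.

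In SgshKO mice the Mitf and Tfe3 combination lowered Dbp, 1 of the 9 members, where 9.33% of all genes were called. Dbp was 41.6, 35.1, 38.8 and 36.02 CPM in ntc and 33.4, 29.3, 34.96 and 34.7 in combination libraries of grp 1, and 37.1, 27.8, 29.4 and 32.2 and 27.03, 21.2, 28.7 and 26.3 in those of grp 2. In grp 1 the combination values lay below those of ntc, in grp 2 they overlapped, and the log2 fold change was -0.24 ± 0.07 (adjusted p = 0.0434, edgeR). The call was kept in 5 of 16 fits that left out 1 library, with adjusted p from 0.0384 to 0.0805, and was lost without the grp term (adjusted p = 0.203). Arntl was 6.01, 4.79, 5.12 and 5.43 in ntc and 4.95, 5.44, 6.59 and 5.06 in the combination in grp 1, and 4.65, 4.63, 4.79 and 5.27 and 5.45, 6.82, 6.13 and 6.07 in grp 2, a difference of 0.20 ± 0.10 (adjusted p = 0.233, edgeR). Arntl and Dbp were on opposite sides of 0, and only Dbp passed. In the same comparison Csf1r, Mrc1 and the oligodendrocyte marker Mobp were called higher, and the monocyte marker Ccr2, the glucocorticoid-responsive Nfkbia and 2 of 17 immediate early genes lower; their part was not tested.

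Hlf and Tef, lower with the Mitf ASO in WT, differed here by 0.07 ± 0.11 and -0.05 ± 0.04 (adjusted p = 0.735 and 0.526, edgeR); the difference between the WT and SgshKO responses was not tested, since the tables were normalized separately. Per3 (0.26 ± 0.10, adjusted p = 0.0989) and Per2 (0.24 ± 0.13, adjusted p = 0.269) had positive differences, and Nr1d1 (-0.29 ± 0.17), Nr1d2 (-0.15 ± 0.06) and Per1 (-0.06 ± 0.20) negative ones, none called by edgeR. The member median was -0.05 against 0.00 over all genes. Over 19 other clock genes the median was -0.07 against 0.00 over all genes.

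Between the replicate sets of the SgshKO experiment Dbp was again the 1 member of 9 called, where 24.2% of all genes were. It was lower in grp 2 than in grp 1 by a log2 fold change of -0.31 ± 0.07 (adjusted p = 0.00505, edgeR), and stayed called in 16 of 16 fits that left out 1 library. Arntl differed by 0.01 ± 0.10, so no opposite step of Arntl accompanied it, and Tef by -0.11 ± 0.04 (adjusted p = 0.0592, edgeR). Beside this, 11 of 11 measured glucocorticoid-responsive genes had lower values in grp 2, 3 of them called. All 5 neutrophil granule genes were called higher in grp 2, with a median log2 difference of 4.89 and sums of 65.4 to 516 against 0.996 to 38.5 in grp 1. The microglia markers Tmem119 and Sall1, the border macrophage marker Mrc1 and 3 of 17 immediate early genes were called as well. The part of these in the Dbp difference was not tested. Hlf in these ntc libraries was 12.9 to 21.5 CPM, against 27.9 to 47.3 in the WT ntc libraries and 2.84 to 7.85 in SgshKO at 8 months, levels from 3 tables that were scaled separately and are not tested against each other.

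Genes whose residual variation was most like that of Dbp or Arntl were sought over 9541 genes in the 58 libraries, with group means, and grp in the ASO tables, removed and Pearson's r averaged over the 3 tables. Each r is a description over libraries that share depth and preparation. Among the members, Hlf (mean r = 0.52), Nr1d2 (0.45), Nr1d1 (0.39) and Tef (0.38) were most like Dbp, and Arntl stood at -0.23, with -0.54 in the WT ASO table, -0.10 in the SgshKO ASO table and -0.04 in the age series. Among the non-members most like Dbp were Cnnm2 (0.53), Mlycd (0.51), Ccdc22 (0.50) and Creb3l1 (0.49), so 1 non-member exceeded the closest paralog. The lowest were Pogk (-0.48), Nras (-0.46), Eif3j1 (-0.45), Ktn1 (-0.45) and Nob1 (-0.45). For Arntl the highest were Cdk5 (0.60), Acat2 (0.57), Nipsnap1 (0.57), Anp32e (0.56) and Setd3 (0.56), and the lowest were Rab27a (-0.56), Il17ra (-0.56), Rtl6 (-0.54), Nsmce4a (-0.52) and Xylb (-0.51). The other members ran from -0.28 for Per3 to 0.05 for Hlf in their likeness to Arntl, inside the range of those non-members.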

How the data were processed

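RNA-seq of sorted mouse microglia was analysed in 58 libraries (22 age series, 20 WT ASO, 16 SgshKO ASO). The authors deposited raw counts per gene, TPM for the age series, and a normalized, batch-corrected signal for each ASO series. Per the submitters' processing notes, reads were handled with STAR 2.5.3a, kallisto 0.44.0, HOMER 4.11 and DESeq2 1.36.0 on mm10; which tool made which table is not given in the sources used here. RNA came from 2 kits, not assigned to libraries in the labels, and libraries were polyA-selected and dUTP-stranded, per the labels' protocols. Groups were taken from the titles.

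Each count table was fitted with edgeR 4.0.16 (quasi-likelihood, TMM scaling, filterByExpr at a minimum count of 10) in R 4.3.3, and p-values were adjusted by Benjamini-Hochberg over all genes tested (14309, 10277 and 10589), with calls at 0.05. The ASO fits had grp as a covariate. CPM used the same scaling, and log2 CPM added 0.5. The members, the lists and the comparisons were chosen with earlier results of these data known. Genes were named by symbol as members; non-members were named as the 5 highest and 5 lowest in likeness to Dbp and to Arntl, or as called members of the lists, and others are marked in the text; some genes that this rule would name are not reported here. Correlations used exact permutation of pairings (scipy 1.17.1); that of SgshKO at 8 months is printed without its p, since 8-month values helped to choose the genes. Alternatives were RLE factors, no filter, DESeq2 1.42.0, limma 3.58.1 on the deposited TPM (pseudocounts 1 and 0.1, mean TPM of at least 1) or batch-corrected signal, replicate blocks and leaving out each library. The edgeR script was tested on simulated counts.

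PBS replicate 4 is labelled grp 4 in its title and grp 3 in its column; grp 4 was used, and its deviations correlated with grp 4 at a mean r of 0.460 and with grp 3 at 0.211. Same-grp WT ASO libraries correlated at a median r of 0.395 (0.0286 to 0.695), others at -0.125. Same-numbered libraries in the age series correlated at -0.173 to 0.143, so their numbers were not treated as pairs. In the SgshKO ASO series same-numbered libraries correlated at a median r of 0.287 within grp 1, others at -0.110. Within grp 2 these medians were 0.107 and -0.0188. The main SgshKO ASO fit held grp only, and replicate number was added in an alternative. No 2 libraries of a group differed by counting noise only (lowest chi-square per degree of freedom 8.29). Depth ranged from 8191508 to 30431440 counts per library.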

Additional observations from a re-analysis of the deposited data

Results flagged for a closer look

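Of 93 combinations of a member and a group of 4 to 10 libraries, 5 held a library far from the others of its group (a gap to the next library that is large against the group's range); chance gives about 1 in 20. In SgshKO at 8 months, Per1 was 281 CPM in replicate 6, with 205 in the next library, and Ciart was 6.60 in the same replicate, with 4.07 in the next. Hlf was 7.85 CPM in SgshKO replicate 4 of 8 months, with 4.60 in the next. In the ntc libraries of the WT ASO series, Nr1d1 was 15.6 CPM in replicate 2, with 28.1 in the next library, and Dbp was 48.7 CPM in replicate 1, with 26.2 in the next. The ntc group is the control of 3 comparisons, and the Nr1d1 call with the Tfe3 ASO was kept without ntc replicate 2.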

How the results depend on the processing

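The number of members called at 3 weeks was 1, and 0 with the replicate block and with limma on log2(TPM + 0.1); leaving out 1 library gave 0 to 1. With the Mitf ASO it was 2, but 1 on the batch-corrected signal and 0 with no replicate block (no grp term), and 1 to 2 when 1 library was left out. With the Tfe3 ASO it was 1, but 2 with DESeq2, 0 with no replicate block, and 0 to 2 with 1 library left out. For the combination in SgshKO it was 1, but 0 with no replicate block and 0 to 1 with 1 library left out; with grp and replicate number together as a replicate block it stayed at 1. Between the SgshKO replicate sets it was 1, and 1 to 2 with 1 library left out. Over grp in WT it was 6, and 5 to 8 with 1 library left out. The Tfeb ASO and ntc against PBS gave 0 under each alternative run. Dbp in ntc against PBS changed sign with no replicate block (0.0395) and with PBS replicate 4 in grp 3 (0.0942), a setting chosen after seeing the data, and ran between -0.168 and 0.157 with 1 library left out; at 3 weeks Dbp ran between -0.0149 and 0.400, with the Tfeb ASO between -0.0218 and 0.311, and Arntl between the SgshKO replicate sets between -0.0293 and 0.0435. Arntl against Dbp in SgshKO at 8 months went from r = -0.929 to r = -0.725 without 2 libraries. Over all genes, calls went from 1128 to 211 (Mitf ASO), 80 to 9 (Tfeb ASO), 222 to 29 (Tfe3 ASO) and 988 to 452 (combination) with no replicate block. DESeq2 gave 213 for Tfeb, 403 for Tfe3 and 2 for ntc against PBS, and the batch-corrected signal 145 for Tfeb and 1 for ntc against PBS. Leaving out 1 library gave 621 to 970 (Mitf), 24 to 63 (Tfeb) and 79 to 140 (Tfe3). Arntl, Nr1d1, Per2, Per3, Ciart and Hlf had under 100 counts in some libraries. Low counts alone did not mark the widest standard errors. Per1, with at least 276 counts in each WT ASO library, had 0.40 with the Mitf ASO, against 0.13 for Arntl.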
